A study of Mus musculus with 6 samples.

Results

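Self nucleic acid clearance was followed in mouse ovarian secondary follicles through 8 genes: the DNA exonuclease gene Trex1, the dNTP hydrolase gene Samhd1, the RNase H2 subunit genes Rnaseh2a, Rnaseh2b and Rnaseh2c, the RNA editing gene Adar, the DNA-sensing adaptor gene Sting1 (older symbol Tmem173) and its kinase gene Tbk1. A gene entered if a probe set, a group of short probes on the array, was annotated with its symbol and no other. This gave 7 of the 8 genes with 17 probe sets, among 18193 genes with 34945 such probe sets. The only probe set listed for Trex1 also carries the symbol of another gene, so Trex1 was not analysed here. The follicles came from ovaries of C57BL/6J females, aged 9 weeks (young, 3 samples) or 32 weeks (old, 3 samples), with no treatment named. The mice were obtained as specific pathogen-free, and the study raises that some viruses might nevertheless have infected them. Infection was not tested here. The follicles were freed with needles and held an oocyte with its granulosa cells, and each sample was hybridized to an Affymetrix 3' expression array. The samples are labelled biological replicates, and since nothing read here says how many mice stand behind each, p-values cover only the spread among these 6 samples.

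Cells hold DNA and RNA of their own that innate immune sensors can mistake for that of a virus, and a set of enzymes keeps these molecules below notice. Trex1 degrades stray DNA in the cytosol, Samhd1 destroys deoxynucleotides, RNase H2 removes RNA from hybrids with DNA and ribonucleotides from the genome, and Adar converts adenosine to inosine in double-stranded RNA. Inherited loss of any of them causes Aicardi-Goutières syndrome, in which interferon is made without infection. Cytosolic DNA is sensed by cGAS, whose product cGAMP binds Sting1, and Tbk1 then phosphorylates Irf3, which switches on the interferon gene Ifnb1.

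Adar, Samhd1 and Rnaseh2c were the genes of the group that rose, and their promoters are shown for that reason. Each runs from 250 bases before to 50 bases after a transcription start in RefSeq (GRCm38.p6), read 5′ to 3′ on the strand of the gene. Capitals mark matches to GAAANNGAA on either strand, which is the core letters of the interferon-stimulated response element, GAAANNGAAA, without the last A.
Adar, last of its 3 listed starts, chr3:89730468-89730767, plus strand: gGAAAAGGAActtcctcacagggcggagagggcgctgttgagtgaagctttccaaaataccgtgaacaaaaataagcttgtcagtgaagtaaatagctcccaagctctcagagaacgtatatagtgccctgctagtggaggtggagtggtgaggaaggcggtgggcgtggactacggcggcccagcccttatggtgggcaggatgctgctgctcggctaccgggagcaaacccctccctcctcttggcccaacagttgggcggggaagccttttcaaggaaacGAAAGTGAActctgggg
Samhd1, chr2:157135047-157135346, minus strand: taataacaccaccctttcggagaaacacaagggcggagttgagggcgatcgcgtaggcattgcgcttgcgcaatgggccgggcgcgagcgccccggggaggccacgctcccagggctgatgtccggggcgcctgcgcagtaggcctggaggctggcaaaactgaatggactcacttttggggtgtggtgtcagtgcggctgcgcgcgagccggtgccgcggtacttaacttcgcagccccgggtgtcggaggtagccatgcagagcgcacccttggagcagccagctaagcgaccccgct
Rnaseh2c, chr19:5601623-5601922, plus strand: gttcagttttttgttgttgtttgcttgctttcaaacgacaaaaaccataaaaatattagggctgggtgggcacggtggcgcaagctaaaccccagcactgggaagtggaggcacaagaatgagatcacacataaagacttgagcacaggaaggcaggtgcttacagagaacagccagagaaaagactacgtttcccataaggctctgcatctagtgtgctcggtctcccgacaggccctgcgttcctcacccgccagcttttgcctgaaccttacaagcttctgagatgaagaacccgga

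The full 10-letter core was in none of these promoters, nor in the other 2 listed for Adar or in that of Rnaseh2a or Tbk1. Over all 32851 listed promoters of this length, 3.44% held it. The shorter form, chosen after the Adar promoter had been read, had 2 matches in the Adar promoter shown and none in the other promoters of these genes that were read, against 8.56% of all promoters with at least 1. The Adar matches began 249 bases before the start and 33 bases after it. Adar is known to have separate starts for a constant shorter protein and an interferon-induced longer protein, and which start the array's probe sets read was not analysed here. The gamma-activated site core TTCNNNGAA had 1 match each in the Adar promoter shown, in that of Samhd1 and in that of Rnaseh2a, and it was in 8.30% of all promoters. These matches describe letters and not bound sites.

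In the old samples 3 of the 7 genes were higher and 0 were lower past an adjusted p of 0.05 (limma, Benjamini-Hochberg over 18193 genes), while 10.1% of all genes were higher and 13.3% were lower by the same rule. Over all genes that balance turned with the scaling of the arrays, from 1835 higher and 2422 lower to 2153 and 1939 after quantile and 2184 and 1934 after cyclic loess normalization. With a fold of at least 2 required as well, which are the thresholds of the study, none of the 7 was called by limma or SAM, against 0.638% of all genes higher and 0.126% lower. Counted at an unadjusted p under 0.05, again 3 genes were higher and 0 lower, against 16.9% and 20.4% of all genes. The groups did not overlap for 4 genes, with Adar, Samhd1 and Rnaseh2c higher and Rnaseh2a lower, where 18.9% of all genes had the old samples above the young samples and 23.7% had them below. The median log2 change over the 7 genes was 0.083, and it was -0.0042 over all genes tested. Each gene was read at its brightest probe set, judged by the mean over the 6 arrays.

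**Figure D1:**
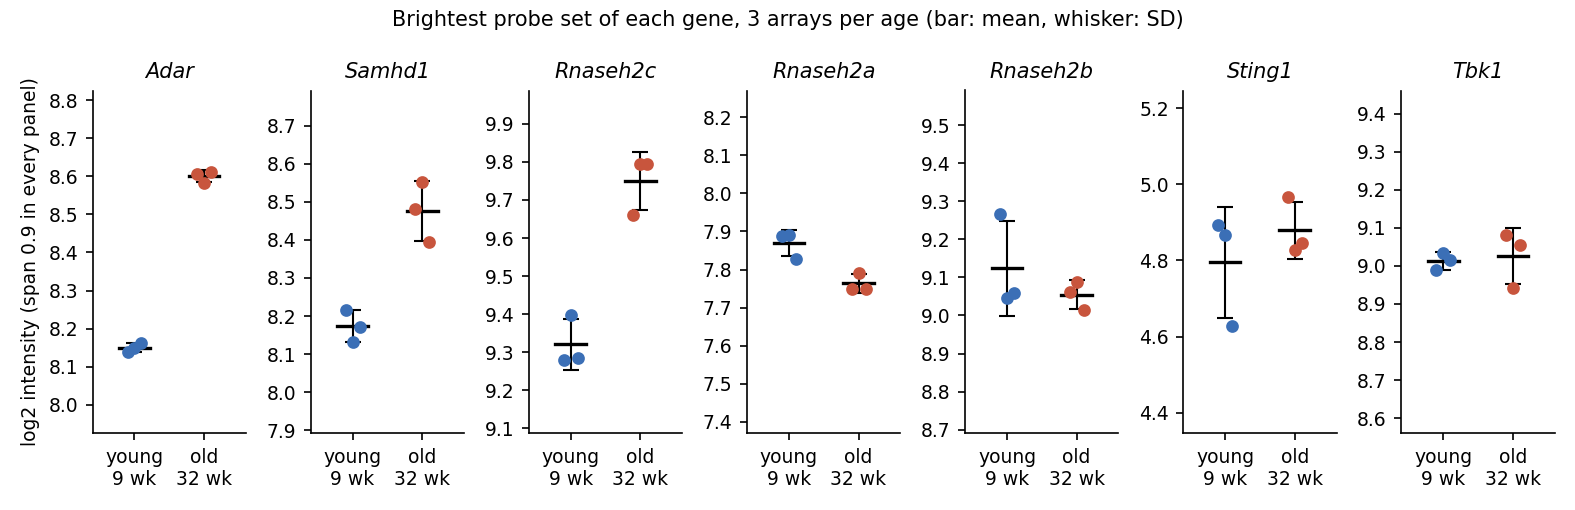
Log2 intensity (vertical axis, each panel spanning the same range) of the brightest probe set of each gene in 3 young (blue) and 3 old (red) samples, with the mean as a bar and the SD as a whisker. The old points lie above the young points for Adar, Samhd1 and Rnaseh2c, lie just below them for Rnaseh2a, and overlap for Rnaseh2b, Sting1 and Tbk1.

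Adar, the editing enzyme for double-stranded RNA, had the largest change of the 7 genes. At its brightest probe set, 1434268_at, the log2 intensity was 8.14, 8.15 and 8.16 at 9 weeks and 8.61, 8.58 and 8.61 at 32 weeks. The ages were far apart against a spread of 0.012 and 0.016 (SD, n = 3 each). The log2 change was 0.45 (SE 0.047, limma adjusted p = 0.0011), which is 1.37-fold with a 95% interval from 1.26 to 1.48. A second probe set, 1439276_at, also passed the test. It stood at 6.61, 6.48 and 6.55 at 9 weeks and at 7.24, 7.27 and 7.26 at 32 weeks, a log2 change of 0.71 (SE 0.060, limma adjusted p = 2.9e-04 over all probe sets).

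The third Adar probe set, 1425405_a_at, had overlapping groups. Its log2 intensity was 7.26, 7.25 and 7.28 at 9 weeks and 7.20, 7.24 and 7.35 at 32 weeks. The old samples lay on both sides of the young samples, with a log2 change of -0.0037 and a 95% interval from -0.15 to 0.14. Within each array, 1439276_at minus 1425405_a_at was between -0.77 and -0.65 at 9 weeks and between -0.090 and 0.046 at 32 weeks. The difference between the ages was 0.71, the groups did not overlap, and an exact two-sided permutation test gave p = 0.1, the smallest that 3 samples against 3 allow. For 1434268_at minus 1425405_a_at the difference between the ages was 0.45 (exact permutation test, p = 0.1). Where these probe sets lie on the Adar transcripts was not analysed here.

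Samhd1, which lowers the supply of deoxynucleotides, was 1.23-fold higher at 32 weeks (95% interval from 1.12 to 1.36). Its brightest probe set, 1418131_at, read 8.22, 8.13 and 8.17 at 9 weeks and 8.48, 8.55 and 8.39 at 32 weeks. All old samples lay above the young samples, and the log2 change was 0.30 (SE 0.060, limma adjusted p = 0.012). Samhd1 had 5 probe sets, and each was higher at 32 weeks than at 9 weeks on average, by 0.13 to 0.52 on the log2 scale. Of these, 3 passed an adjusted p of at most 0.05. The probe set 1420273_x_at, whose suffix marks probes that can also bind other transcripts, went from 5.26, 5.19 and 5.42 to 5.91, 5.69 and 5.83. The dimmest, 1420272_at, went from 3.76, 3.90 and 3.997 to 4.45, 4.29 and 4.30. The groups of both were separate, as for the brightest. The values of 1420272_at were all under 4.94, the median log2 intensity over all probe sets and arrays. The other two probe sets had overlapping groups. The probe set 1434438_at was nearly as bright as 1418131_at, with means of 8.13 at 9 weeks and 8.26 at 32 weeks. Its log2 change was 0.13 (SE 0.065, limma adjusted p = 0.20). At 1444064_at the means were 6.25 and 6.48, a log2 change of 0.23 (SE 0.094, limma adjusted p = 0.12).

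Of the 3 RNase H2 subunit genes, Rnaseh2c passed the test. Rnaseh2c, an accessory subunit, was 1.35-fold higher at 32 weeks (95% interval from 1.21 to 1.49). The brightest probe set, 1439453_x_at, read 9.28, 9.40 and 9.28 at 9 weeks and 9.66, 9.79 and 9.79 at 32 weeks. The groups were separate, with a log2 change of 0.43 (SE 0.064, limma adjusted p = 0.0039). The probe set 1417427_at, which has no suffix for shared probes, was 8.88, 8.89 and 8.89 at 9 weeks and 9.28, 9.30 and 9.28 at 32 weeks. Its rise of 0.40 (SE 0.054, limma adjusted p = 0.0022 over all probe sets) was of like size. The third, 1435733_x_at, rose by 0.53 (SE 0.083). All 3 probe sets of Rnaseh2c thus had separate groups and passed the threshold.

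Rnaseh2a, the catalytic subunit, did not pass the test. Its probe set 1452725_a_at read 7.89, 7.89 and 7.83 at 9 weeks and 7.75, 7.79 and 7.75 at 32 weeks. The groups were separate but close, with a log2 change of -0.11 (SE 0.050, limma adjusted p = 0.17) and a 95% interval from 0.857-fold to 1.01-fold. This value shrank to -0.017 after quantile normalization and to -0.034 after cyclic loess normalization (limma adjusted p = 0.82 and 0.63). Rnaseh2b, the other accessory subunit, had 9.27, 9.05 and 9.06 at 9 weeks and 9.06, 9.09 and 9.01 at 32 weeks. The young samples spread more widely than the old ones here, and the groups overlapped, with a log2 change of -0.069 (SE 0.072, limma adjusted p = 0.53). The interval for Rnaseh2b ran from 0.848-fold to 1.07-fold, so an increase as large as the estimate for Rnaseh2c lay outside it. Rnaseh2a and Rnaseh2b each had 1 probe set.

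Differences taken within each array compare the changes of the subunits free of any overall scale of the array, but not free of shifts particular to a probe set. Rnaseh2c minus Rnaseh2a was 1.39, 1.51 and 1.45 at 9 weeks and 1.91, 2.003 and 2.04 at 32 weeks, so the change of Rnaseh2c exceeded that of Rnaseh2a by 0.54 (exact two-sided permutation test, p = 0.1). It exceeded the change of Rnaseh2b by 0.50, again with separate groups (exact permutation test, p = 0.1). Rnaseh2b minus Rnaseh2a was 1.25 ± 0.11 at 9 weeks and 1.29 ± 0.025 at 32 weeks (SD, n = 3 each), and here the groups overlapped (exact permutation test, p = 0.6). The 6 differences of this kind, for the subunits and for probe sets of Adar and Tbk1, were chosen after the values had been seen. After Benjamini-Hochberg adjustment over these 6 exact permutation tests, 5 stood at p = 0.12.

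**Figure D2:**
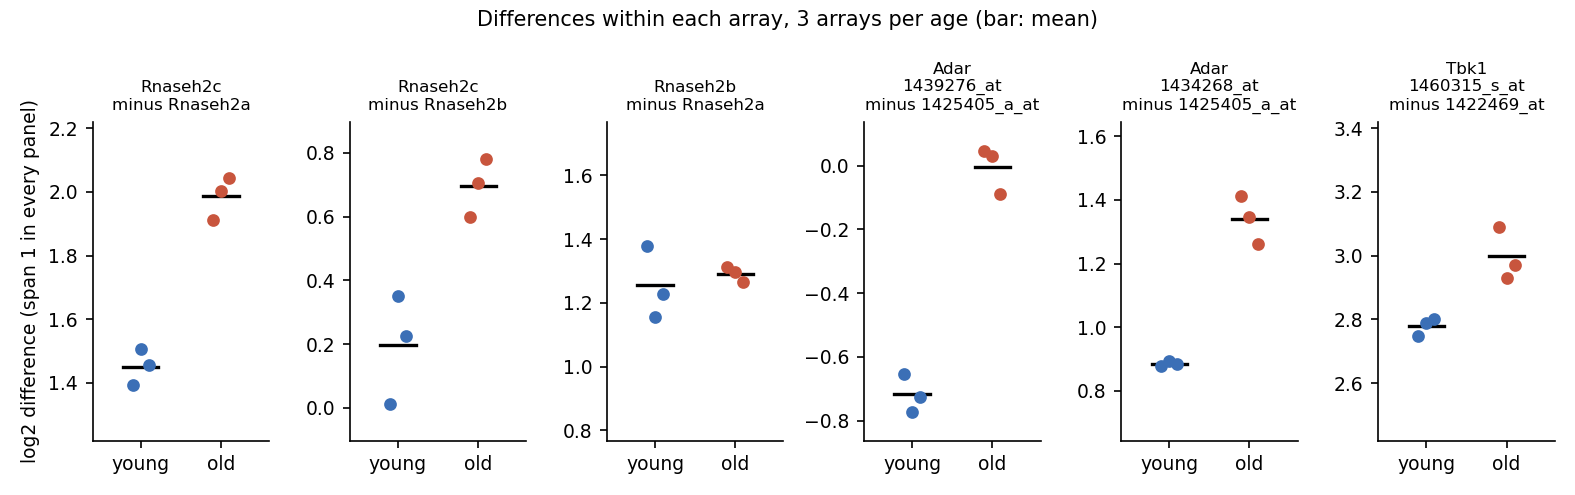
Differences of log2 intensity within each array (vertical axis, each panel spanning the same range) between RNase H2 subunits and between probe sets of Adar and of Tbk1, with 1 point per sample (young blue, old red) and the mean as a bar. The groups are separate in every panel but Rnaseh2b minus Rnaseh2a.

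Sting1, the adaptor through which cytosolic DNA acts, showed no difference past the spread between samples. The brightest probe set, 1427911_at, read 4.89, 4.87 and 4.63 at 9 weeks and 4.97, 4.83 and 4.84 at 32 weeks. The old samples overlapped the young samples, with a log2 change of 0.083 (SE 0.084, limma adjusted p = 0.51) and an interval from 0.924-fold to 1.21-fold. The probe set 1447621_s_at was 4.16, 3.99 and 3.73 at 9 weeks and 3.81, 4.36 and 3.85 at 32 weeks, a log2 change of 0.044 with a 95% interval from -0.34 to 0.43. Both probe sets were dim, with mean values under 4.94, the median log2 intensity over all probe sets and arrays. The deposited values carry no detection call, so whether Sting1 was above background cannot be read from them.

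Tbk1, the kinase that acts on Irf3, overlapped between the ages at its brighter probe set and was lower at its dimmer probe set. At 1460315_s_at the log2 intensity was 8.99, 9.03 and 9.01 at 9 weeks and 9.08, 8.94 and 9.06 at 32 weeks. The groups overlapped, with a log2 change of 0.013 (SE 0.057, limma adjusted p = 0.89) and an interval from 0.920-fold to 1.11-fold. At 1422469_at it was 6.24, 6.25 and 6.21 at 9 weeks and 5.99, 6.01 and 6.08 at 32 weeks. These values were above 4.94, the median over all probe sets and arrays, and this probe set has no suffix for shared probes. Here all old samples lay below the young samples, a log2 change of -0.21 (SE 0.058, limma adjusted p = 0.038 over all probe sets). The within-array difference of the 2 probe sets differed between the ages by 0.22 (exact permutation test, p = 0.1).

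Over the 17 probe sets of the 7 genes, 8 were higher and 1 was lower past an adjusted p of 0.05 (limma, adjusted over 34945 probe sets), where 8.95% of all probe sets were higher and 13.8% were lower. With a fold of 2 required as well, none of the 17 was called, against 0.466% of all probe sets higher and 0.552% lower. The 8 higher probe sets belonged to Adar, Samhd1 and Rnaseh2c, and the lower probe set was that of Tbk1. Groups did not overlap in 8 higher and 2 lower probe sets, against 17.6% and 23.7% of all probe sets. Probe sets of a gene share its RNA and are not independent readings of a condition. The control probe sets of the arrays moved in the same samples. For Gapdh the 3' minus 5' probe set was 0.47 ± 0.014 at 9 weeks and 1.51 ± 0.0048 at 32 weeks (SD, n = 3 each), and for beta-actin it was 1.48 ± 0.033 and 2.53 ± 0.050. Both had separate groups (exact permutation test, p = 0.1 each). Between the ages it shifted by 1.04 for Gapdh and 1.05 for beta-actin, while the largest change among the 7 genes was 0.45. In these samples the shift cannot be told apart from age. Its part in the changes of Adar, Samhd1 and Rnaseh2c and in the differences between RNase H2 subunits was not tested. Nor was its part in the disagreement between probe sets of Adar, Samhd1 and Tbk1. Its part in the changes of the cell type markers and pathway genes below was not tested either. Among those pathway genes, probe sets of Rrm2, Irf3, Itpa, Mavs, Dhx58 and Tlr3 also differed from each other in their change.

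**Figure D3:**
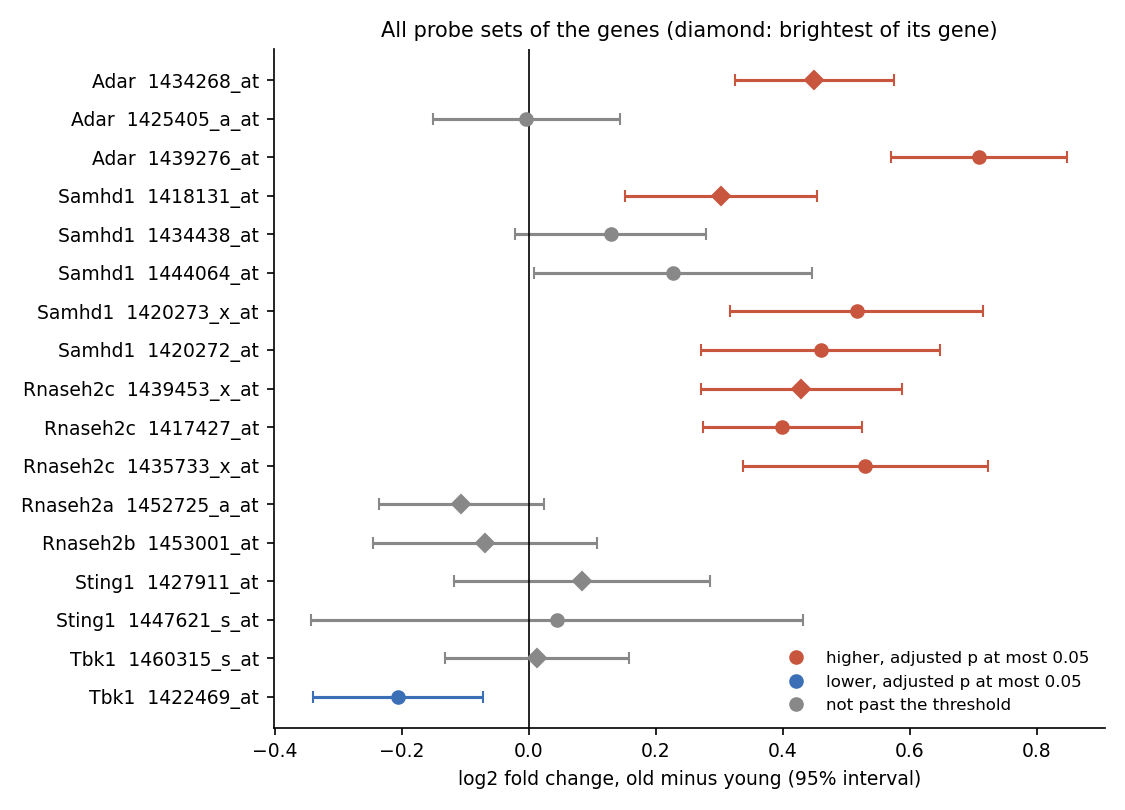
Log2 fold change of old minus young samples (horizontal axis) with its 95% interval for each of the 17 probe sets, diamonds marking the brightest of each gene. The 3 probe sets of Rnaseh2c lie together to the right of 0, while those of Adar and Tbk1 are spread between no difference and a called change.

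Cells other than the oocyte and granulosa cells are a part of what such samples can hold, and several of the 7 genes are used by immune cells. Macrophage and dendritic cell markers were higher at 32 weeks for 13 of 22 genes and lower for 1, with Ctss at 1.36 and Mpeg1 at 1.30 on the log2 change scale. The lower gene was Lyz2 (-0.32). Another 8 were not called, among them Cd68 (0.20), Adgre1 (0.20) and Mrc1 (-0.17). By the same rule 10.1% of all genes were higher and 13.3% were lower. The summed intensity of these macrophage and dendritic cell markers was between 646 and 650 at 9 weeks and between 1001 and 1041 at 32 weeks. No marker was listed at 0. Oocyte markers went the other way, with 9 of 12 lower and none higher, and with a summed intensity of 32063 to 33333 at 9 weeks and 27836 to 28343 at 32 weeks. Of 9 granulosa cell markers, 2 were lower and none was higher. The oocyte and granulosa cell markers were bright in both ages, as the label of the samples requires. The part of these markers in the changes of Adar, Samhd1 and Rnaseh2c was not tested, and in such bulk samples fewer cells of a type and less RNA per cell cannot be told apart.

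Other genes of the pathway were described through 6 lists, which held 99 measured genes other than the 7. Of these, 21 were higher, 7 were lower and 71 passed in neither direction at an adjusted p of at most 0.05, and the median log2 change was -0.0080. By the same rule 10.1% of all genes were higher and 13.3% were lower. These shares belong beside the counts of every list below.

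Most genes on the list of nucleases and editors did not pass the test. Of 22 measured genes, 2 were higher, none was lower, and the median log2 change was -0.032. Some listed genes are not themselves nucleases or editors, and the higher genes are among these. The higher genes were Lsm11 (0.27, SE 0.070, limma adjusted p = 0.030), a part of the histone pre-mRNA processing complex, and Atad3a (0.20, SE 0.056, adjusted p = 0.041), a mitochondrial membrane ATPase. Both were near the threshold, and of 15 alternative fits 6 lost the call of Lsm11 and 9 that of Atad3a. A second Lsm11 probe set was at -0.032, and the Atad3a probe set without a suffix for shared probes was at 0.0018. Rnaseh1, the other RNase H, was at -0.17 (SE 0.056, adjusted p = 0.061).

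Nucleotide pool enzymes, which set the deoxynucleotide supply that Samhd1 draws down, went in both directions, as genes over the whole array did. Of 14 measured genes, 3 were higher and 2 were lower, with a median of -0.036. Itpa, which removes inosine triphosphate from the nucleotide pool, went from 8.24 ± 0.013 to 7.75 ± 0.076 (mean ± SD of log2 intensity, n = 3 each), a log2 change of -0.50 (SE 0.057, limma adjusted p = 0.0015). The other Itpa probe set was at 0.070 with overlapping groups, and the mean of both gave -0.21 (limma adjusted p = 0.045). Rrm2, a subunit of ribonucleotide reductase, rose by 0.33 (SE 0.048, adjusted p = 0.0039) at its brightest probe set. Its other two probe sets were lower, at -0.54 and -0.34, so the direction of Rrm2 depended on the probe set.

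Among the sensors, the RNA sensors Dhx58, Ifih1 and Ddx58 rose, while the RNA sensor Tlr7 (-0.21, limma adjusted p = 0.33) and Cgas did not pass the test. Of 19 measured sensor genes, 9 were higher and 1 was lower, with a median log2 change of 0.091, and 6 of the higher genes passed a fold of 2. With that fold required, 0.638% of all genes were higher and 0.126% were lower. These 6 sensor genes are Dhx58, Ifih1, Ddx58, Zbp1, Eif2ak2 and Tlr3. The study lists all of them in a module that it reported as all upregulated in these samples. Their count is therefore not independent of that report. The log2 changes of Dhx58, Ifih1 and Ddx58 were 1.90 (SE 0.094), 1.66 (SE 0.082) and 1.28 (SE 0.063). For Dhx58 this rested on the brightest probe set, the dimmer ones being at 0.11 and -0.097 with overlapping groups, and the mean of its probe sets gave 0.64. Ifih1 is the receptor that Adar editing is known to keep from binding RNA of the cell itself. Zbp1, which binds nucleic acid in the Z form as the long Adar protein does, had 1.89 (SE 0.14, limma adjusted p = 2.5e-04). Eif2ak2, the kinase PKR, had 1.20 at its brightest probe set and 0.57 and 0.28 at dimmer ones, of which the last did not pass. Tlr3 had 1.18 at a probe set shared between transcripts and 0.22 at its other probe set, which did not pass.

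Of the DNA sensors, Ifi204 (0.61) and Ifi203 (0.35) were higher, both members of a family of like genes whose probes may not tell them apart, and the DNA end-binding gene Xrcc5 was lower (-0.22). Cgas went from 7.501 ± 0.080 to 7.59 ± 0.054 (mean ± SD of log2 intensity, n = 3 each), with a log2 change of 0.088 (SE 0.062, limma adjusted p = 0.35). The groups overlapped for Cgas, and its second probe set was at -0.0045. Aim2, the inflammasome sensor of DNA, was at 0.091 with limma adjusted p = 0.37. Like those of Ifi204, its means of 1.92 and 2.01 were under the lower quartile of 3.18.

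Regulators of Sting1 were called in both directions, as genes over the whole array were. Of 18 measured genes, 2 were higher and 3 were lower, with a median of -0.041. Trim56, a ubiquitin ligase that promotes signalling in this pathway, went from 5.89 ± 0.13 to 6.62 ± 0.095, a log2 change of 0.72 (SE 0.082, limma adjusted p = 0.0014). Rnf5, a ubiquitin ligase that targets Sting1 for degradation, went from 8.38 ± 0.12 to 7.74 ± 0.061, a log2 change of -0.64 (SE 0.073, adjusted p = 0.0014). The other higher gene was Banf1 (0.27), which coats DNA and competes with cGAS for it, and the other lower genes were the calcium sensor Stim1 (-0.63) and the ubiquitin ligase Trim32 (-0.23).

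Among the partners and substrates of Tbk1, Mavs passed the test. Of 14 measured genes, none was higher by limma and 1 was lower, with a median of -0.088. Mavs, the mitochondrial adaptor of the RNA sensors Ifih1 and Ddx58, went from 7.91 ± 0.020 to 7.495 ± 0.051, a log2 change of -0.42 (SE 0.052, limma adjusted p = 0.0021). Its second probe set was at -0.11 and did not pass. Irf3, the factor that Tbk1 activates, was at 0.095 (SE 0.051, adjusted p = 0.22) at its brightest probe set. A dimmer Irf3 probe set was lower at -0.46 (SE 0.074). Ticam1, the adaptor of Tlr3, was at 0.15 (SE 0.050, adjusted p = 0.077).

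Downstream of Sting1 and Tbk1, Ifnb1 was not higher. Its log2 intensity was 3.23 ± 0.16 at 9 weeks and 3.11 ± 0.26 at 32 weeks (SD, n = 3 each), with a log2 change of -0.12 (SE 0.14, limma adjusted p = 0.56). Its values were below the median of all probe sets, and no detection call came with them. Of 12 measured interferons and early outputs, 5 were higher and none was lower, with a median of 0.27. The chemokine gene Cxcl10 went from 3.44 ± 0.062 to 4.98 ± 0.27, a log2 change of 1.54 (SE 0.13, adjusted p = 4.0e-04). The other higher genes were Ifnz (0.96), Ccl5 (0.61), Ifna2 (0.53) and Nfkbia (0.35), and the type I interferon genes Ifnz and Ifna2 belong to a family of close copies that probes may not separate. Ifna2 was dim, with means of 3.24 at 9 weeks and 3.77 at 32 weeks, also below the median of all probe sets. In the same samples 21 of 22 measured interferon-stimulated genes were higher and none was lower, with a median log2 change of 2.24. Of all genes, 10.1% were higher and 13.3% were lower. Beside the median of 2.24, Adar had 0.45, Rnaseh2c 0.43 and Samhd1 0.30. Many genes of this list, such as Ifit1, Rsad2 and Oasl2, are in the module that the study reported as all upregulated in these samples. Cxcl10 is in that module too. The count and median of the list and the rise of Cxcl10 are therefore not independent of that report.

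**Figure D4:**
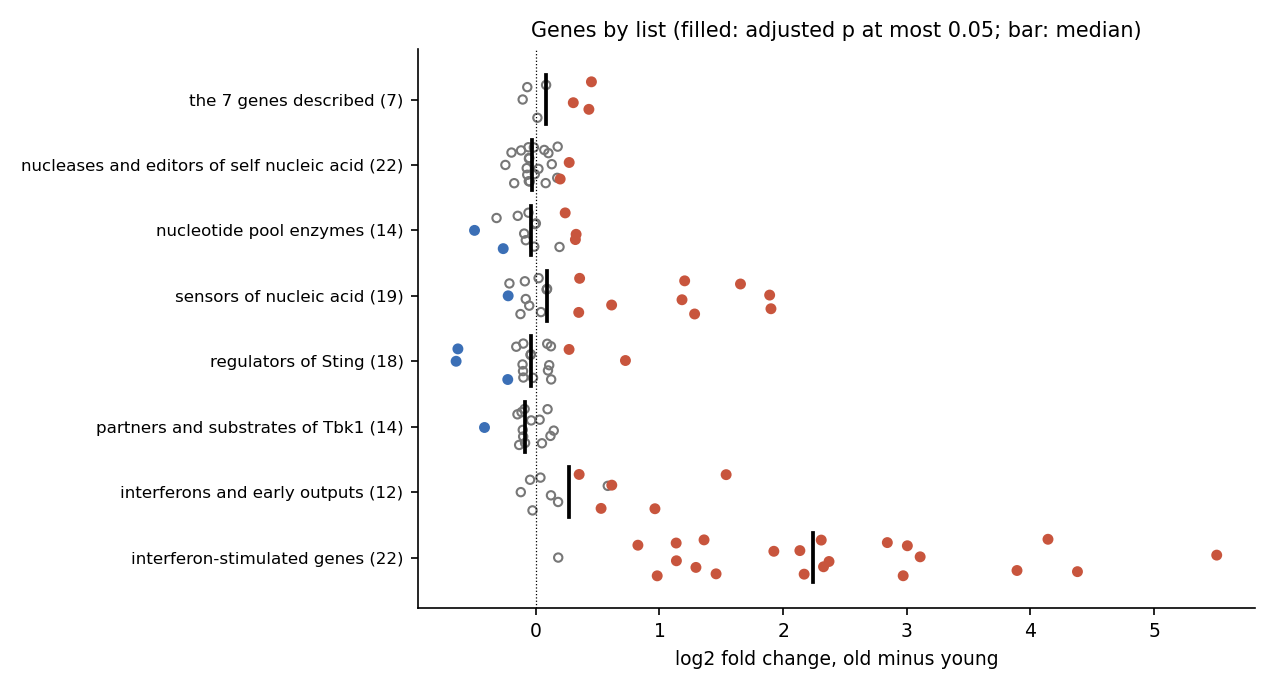
Log2 fold change of old minus young samples (horizontal axis) for each measured gene of the 7 genes, the 6 pathway lists and the interferon-stimulated genes, with filled points for an adjusted p of at most 0.05 (red higher, blue lower) and a bar at the median. The 7 genes lie between -0.11 and 0.45, the sensors reach 1.90, and the interferon-stimulated genes have a median of 2.24.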

How the data were processed

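Total RNA from 6 follicle samples was hybridized to 6 Affymetrix arrays. The authors normalized the scans with RMA, in a version their notes do not name, and deposited linear intensities from 2.62 to 13880, of which log2 was taken here. Names came from the annotation of the array, brought up to date through RefSeq (GRCm38.p6), where 18032 of 18194 gene IDs were found. Tests left out 932 probe sets annotated with several genes, 9160 with none listed and 64 controls. Ages were compared with limma 3.58.1 in R 4.3.3, and single differences with exact permutation tests in scipy 1.17.1. No dim gene was filtered out, and 3 arrays per age limit the precision. On simulated arrays for old minus young over 18193 genes, limma recovered 47 of 100 genes changed by 0.4 and 98 of 100 changed by 1.5 on the log2 scale, at an adjusted p of at most 0.05, with 7 false calls. Only those genes were changed, with noise independent between genes, while 1835 genes were called higher and 2422 lower in the data. The adjustment depends on that share, so these recovery rates need not hold for the data. SAM was rebuilt from its description as an alternative, with 20 label assignments.

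The genes and lists were chosen with earlier results of these data known. Named genes were the 7 genes, those past a fold of 2 in each list (at most 6) or otherwise the 2 with the smallest p, and for the 2 genes with the smallest p their 3 nearest patterns. Cgas, Tlr7, Irf3, Ifnb1, Rnaseh1, Aim2 and the remaining called genes of small counts were named after their values were seen. Alternatives were SAM, other probe set rules, a filter on level, renormalization, other priors and weights, the replicate block, a fold of 1.5 and leaving out each sample. Promoters were read from RefSeq, which listed none for Rnaseh2b in the table used; that of Sting1 was not used here.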

Additional observations from a re-analysis of the deposited data

How the results depend on the processing

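Under all 15 alternative fits Adar, Samhd1 and Rnaseh2c stayed above the young samples past the 0.05 threshold, with log2 fold changes from 0.39 to 0.52, from 0.26 to 0.37 and from 0.40 to 0.48. With the replicate number as a block, which same-numbered samples did not bear out (correlations of their deviations 0.053, 0 and 0.043), 3 of the 7 genes were again higher and none was lower, and Samhd1 was nearest the threshold without young replicate 2 (adjusted p = 0.049 from limma). No gene of the 7 reached a fold of 2, or of 1.5, under any fit. Without probe sets shared between transcripts, Tbk1 was read at its dimmer probe set (-0.21) and 1 gene was then called lower. Small values changed sign for Tbk1 with all probe sets averaged (-0.096), without old replicate 1 or 3 (from -0.014 to 0.055 over the 6 omissions), for Rnaseh2b without young replicate 1 (from -0.11 to 0.0027) and for Sting1 without young replicate 3 (from -6.7e-04 to 0.13). Rrm2 was at -0.19 with probe sets averaged and at -0.34 without shared probe sets, both by construction from its lower probe sets. Lower pathway genes numbered 13 with probe sets averaged, 11 with dim genes filtered and 12 with a trended prior, against 7, and from 4 to 9 when a sample was left out, with 4 without young replicate 2 or old replicate 3. The causes of these shifts in count were not tested. Of all genes past the 0.05 threshold, 43.1% were higher, against 52.6% with quantile and 53.0% with cyclic loess normalization, where Rnaseh2a stood at -0.017 and -0.034. With probe sets averaged, Dhx58 was at 0.64, Eif2ak2 at 0.68, Tlr3 at 0.70, Mavs at -0.26 and Itpa at -0.21, all still past the threshold.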

Other observations

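By the distance between log2 values centred on their mean over the 6 arrays, the patterns nearest to that of Adar were those of Prkg2 (distance 0.057), Marveld1 (0.066) and Irx3 (0.067), and those nearest to Rnaseh2c were Klhl1 (0.055), Myom2 (0.091) and Grasp (0.099). With 2 ages such likeness mostly measures an equal difference between them.

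Among other cell types, all 6 surface epithelium markers were higher in the old samples, led by Krt7 (log2 fold change 1.63), Krt19 (1.55) and Upk3b (1.17). Of 11 theca and stroma markers 5 were higher and 2 lower, with a median log2 change of 0.24. Star at 1.87 and Cyp11a1 at 1.34 were the 2 past a fold of 2. Of 8 endothelial markers 2 were higher, with Esam at 0.57, and 1 was lower, Emcn at -0.50. Of 12 lymphocyte markers Nkg7 (0.59) was higher and Ms4a1 (-0.28) was lower, and of 5 neutrophil markers 2 were higher, with S100a8 at 1.34. At an adjusted p of at most 0.05, the rule of these counts, 10.1% of all genes were higher and 13.3% were lower.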
